A study of Mus musculus with 12 samples.

Results

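The 44 genes described here mark the endothelium, the cell layer that lines blood and lymph vessels, and they were sorted by the type of vessel they are known from. They are the rows of the count table whose identifiers map to a fixed list of mouse symbols, 44 of the 78298 gene rows. The list was chosen with earlier results of these data known. Its counts beside the shares of all genes are therefore a description. Of the 44 genes, 30 are expressed in most or several kinds of endothelium, 5 are known from lung capillaries, 5 from larger vessels and 4 from lymphatic vessels. RNA was sequenced from 12 mouse lung libraries, 3 in each of 4 groups. Tissue was either macroscopic LLC tumour or normal lung next to it, both dissected by hand, and treatment was either HDM, named as chronic house dust mite exposure in the series text, or VEH. The labels spell out neither VEH nor LLC, and the strain, age and number of mice are not given in the sources used here. Nothing in them says that the 3 libraries of a group came from 3 mice, so the p-values measure the spread between libraries.

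Endothelial cells hold together through junction proteins and read their surroundings through receptor tyrosine kinases such as the VEGF receptors and the angiopoietin receptor. The lung holds a dense capillary bed, where a thin aerocyte type faces the air spaces and a general capillary type serves as its progenitor. Arteries, veins and lymphatics differ from these capillaries in their connexins, adhesion molecules and transcription factors. In a piece of tissue measured as a whole, fewer endothelial cells and less RNA of these genes per cell cannot be told apart.

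Levels are CPM, the counts of a gene per 1000000 counts of the library after TMM scaling, and values are listed for replicates 1, 2 and 3 of a group in that order. Library totals ran from 20608682 to 32765364 counts, and the 44 genes together took 0.589% to 1.19% of all counts in normal lung and 0.14% to 0.275% in tumours. Cav1, which other cell types also make, weighed most in the tumour sums. It held 21675 of the 42368 counts in tumour HDM replicate 3 and 18737 of 73570 in tumour VEH replicate 2. In normal VEH replicate 1 it held 30194 of 287552. Some libraries stand apart. Normal VEH replicate 2 had 142 summed CPM of 5 proliferation genes against 25 to 37.6 in the other normal libraries, and it had the lowest summed level of endothelial reference genes among them. Tumour VEH replicate 2 had the highest alveolar and endothelial levels of the tumours, and tumour HDM replicate 3 had the lowest of both. In addition, library names carry prefixes that each join 1 normal and 1 tumour library, and for 2 prefixes the treatment labels of the joined libraries differ. The labels were kept as given.

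Almost all of the vessel genes were lower in tumours than in normal adjacent lung. Under VEH, 39 of the 44 passed the test as lower and 0 as higher, where 20.6% of the 22190 genes tested were lower and 18.2% higher. Under HDM, 41 were lower and 0 higher, where 28.9% of all genes were lower and 23% higher. Over the mean of both treatments, 42 were lower and 0 higher, against 34.8% lower and 28.1% higher of all genes. The test was edgeR's quasi-likelihood test, with a Benjamini-Hochberg adjusted p below 0.05 taken as passing and the adjustment made over all 22190 genes. DESeq2's Wald test also called 0 of the 44 higher in these 3 comparisons. Both treatments' comparisons use their own normal libraries, while the mean uses all 12.

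The 44 genes had a median log2 change of -2.67 under VEH and -3.64 under HDM, when the median of all genes was -0.11 and -0.08. In the mean comparison the median was -3.27 for the 30 shared genes, -2.81 for the 5 capillary genes, -2.64 for the 5 large-vessel genes and -2.11 for the 4 lymphatic genes. These class medians were not tested against each other. The libraries of the compared groups did not overlap for 38 of the 44 genes under VEH, with the tumours lower, for 41 under HDM and for 37 over both treatments. Among all genes, 28.5%, 33.5% and 19.9% were separated in that direction. Leaving out normal VEH replicate 2 and tumour VEH replicate 2 together, 38 were lower under VEH, and leaving out tumour HDM replicate 3, 39 were lower under HDM. Without tumour VEH replicate 3 the number of vessel genes lower under VEH was 30, and without the 4 libraries of conflicting prefix it was 33. With the library-name prefix as a block it was 36, and Car4, Vwf and Ackr1 were among those that no longer passed under VEH (adjusted p = 0.0761, 0.0761 and 0.218).

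**Figure D1:**
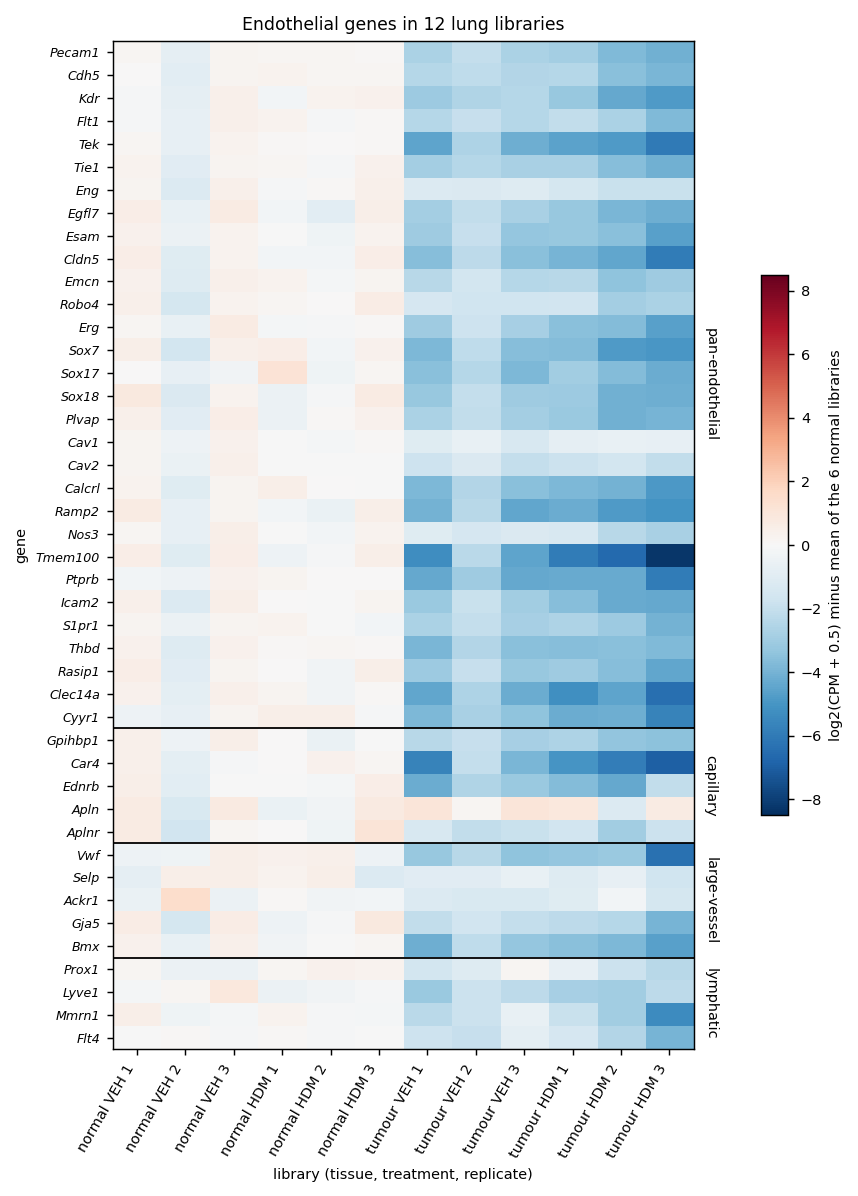
Level of each of the 44 genes (rows, by vessel class) in each of the 12 libraries (columns), as log2(CPM + 0.5) minus the mean of the 6 normal libraries. Blue means lower than in normal lung and red higher. The 6 tumour columns are blue for nearly all rows, with Apln as the visible exception, and normal VEH replicate 2 is paler blue in most rows.

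The endothelial list was not alone in this. All 6 of 6 alveolar type 1 genes were lower in tumours in the mean comparison with a median log2 change of -3.51, as were 6 of 6 alveolar type 2 genes with -3.10 and 6 of 6 red blood cell genes with -2.82. Of 7 pericyte and smooth muscle genes, 6 were lower with a median of -3.02. All 5 proliferation genes were higher, with a median of 3.69, and 0 of 4 leukocyte genes passed in either direction, with a median of -0.13. Under VEH alone fewer passed as lower, where 20.6% of all genes did. These were 4 of 6 alveolar type 1, 1 of 6 alveolar type 2, 5 of 6 red blood cell and 2 of 7 pericyte and smooth muscle genes. Under HDM alone 6 of each list were lower, where 28.9% of all genes were. The summed alveolar type 2 level was 15400 to 43700 CPM in normal lung and 65.8 to 8190 CPM in tumours, and the summed level of 6 endothelial reference genes was 922 to 1980 and 95.2 to 388. The 2 ranges do not overlap between tissues for either list. The part that these other cells have in the lower endothelial levels was not tested.

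**Figure D2:**
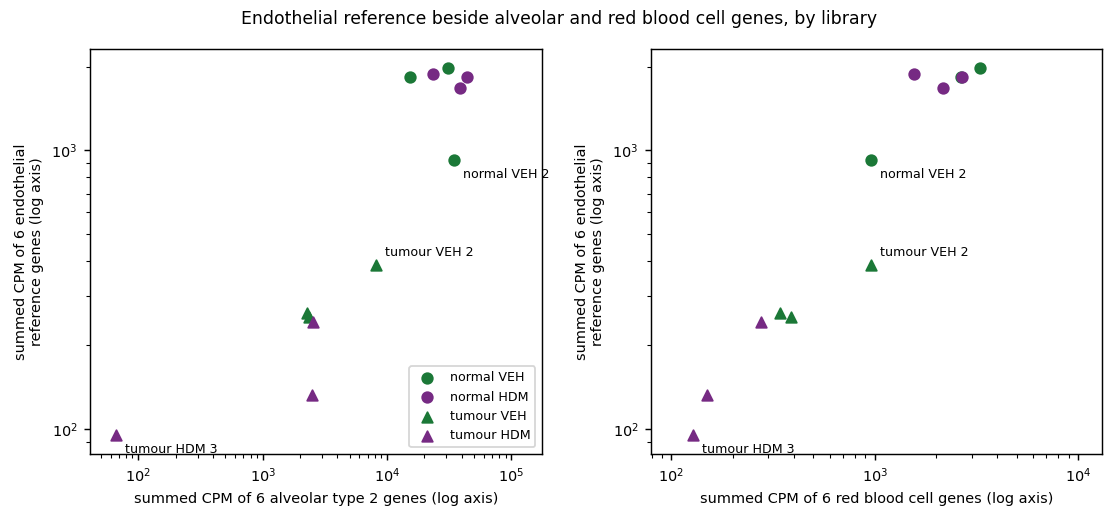
Summed CPM of the 6 endothelial reference genes (vertical, log axis) against summed CPM of 6 alveolar type 2 genes (left) and 6 red blood cell genes (right, log axes), 1 point per library. Normal libraries lie at 922 to 1980 endothelial CPM and tumours at 95.2 to 388, and the 3 named libraries are those that stand apart.

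The 9 junction and surface genes were all lower in tumours in both treatments. Pecam1 (CD31, chromosome 11, 106543689 to 106641454 on GRCm39), an adhesion molecule of endothelial junctions, stood at 568, 297 and 614 CPM in normal VEH, 572, 568 and 556 in normal HDM, 81.2, 127 and 79 in tumour VEH and 69.2, 38.6 and 29.5 in tumour HDM. Every tumour library was below every normal one. The mean fall was 7.97-fold (log2 change -2.99 ± 0.26 SE, adjusted p = 1.17e-05). Cdh5, or VE-cadherin (chromosome 8, 104828231 to 104871143), the cadherin that seals these junctions, stood at 544, 281 and 629 CPM in normal VEH, 660, 602 and 588 in normal HDM, 97.2, 121 and 92.5 in tumour VEH and 96.4, 45.8 and 34.7 in tumour HDM. Its tumour libraries were again all lower, 6.99-fold in the mean (log2 change -2.81 ± 0.28 SE, adjusted p = 2.09e-05). Cldn5, a tight-junction claudin of endothelium (chromosome 16, 18595597 to 18597012), was at 567, 188 and 468 CPM in normal VEH, 320, 321 and 561 in normal HDM, 30.8, 79.7 and 32 in tumour VEH and 23.9, 17.1 and 5.55 in tumour HDM. Tumour HDM replicate 3 was the lowest by some distance, and the mean fall was 14.9-fold (log2 change -3.90 ± 0.46 SE, adjusted p = 5.9e-05).

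Clec14a, a lectin-like surface receptor of vessels, fell most of the 9, and Emcn, the sialomucin endomucin, fell least. Clec14a was at 378, 165 and 401 CPM in normal VEH, 344, 245 and 322 in normal HDM, 13.3, 48.4 and 15.6 in tumour VEH and 7.39, 12.6 and 2.97 in tumour HDM, a mean fall of 22-fold (log2 change -4.46 ± 0.47 SE, adjusted p = 3.39e-05). Tumour VEH replicate 2 kept the highest tumour level, still under the lowest normal library. Emcn was at 61.8, 21.6 and 63.9 CPM in normal VEH, 58, 42.4 and 56.3 in normal HDM, 8.92, 15.8 and 8.54 in tumour VEH and 8.75, 4.1 and 5.37 in tumour HDM, a mean fall of 6.17-fold (log2 change -2.62 ± 0.31 SE, adjusted p = 5.94e-05). Here too the tissues did not overlap. The other 4 genes of this class, Esam, Icam2, Egfl7 and Cyyr1, had mean log2 changes from -4.07 (Cyyr1) to -3.22 (Esam).

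All 10 receptor genes were lower in each treatment. Kdr encodes VEGFR2, the main signalling receptor for VEGF-A (chromosome 5, 76093487 to 76139884). It stood at 227, 142 and 334 CPM in normal VEH, 211, 298 and 318 in normal HDM, 28.8, 41.5 and 44.8 in tumour VEH and 26.4, 11.5 and 8.07 in tumour HDM. No tumour library reached the lowest normal one, and the mean fall was 10.5-fold (log2 change -3.39 ± 0.33 SE, adjusted p = 2.05e-05). Flt1, VEGFR1, which binds VEGF-A tightly and signals weakly, fell 5.78-fold in the mean (log2 change -2.53 ± 0.28 SE, adjusted p = 4.11e-05). Tek, the angiopoietin receptor Tie2 (chromosome 4, 94627291 to 94763224), was at 234, 129 and 265 CPM in normal VEH, 229, 219 and 227 in normal HDM, 8.92, 34.5 and 11.3 in tumour VEH and 8.38, 6.97 and 2.79 in tumour HDM. It had the largest fall of the receptors, 20.7-fold (log2 change -4.37 ± 0.42 SE, adjusted p = 2.01e-05), and Ptprb, the phosphatase VE-PTP that acts on Tie2 and VE-cadherin, fell 19.1-fold (log2 change -4.25 ± 0.39 SE, adjusted p = 1.58e-05). Tie1, the orphan partner of Tie2, fell 8.62-fold (log2 change -3.11 ± 0.29 SE, adjusted p = 1.73e-05).

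Calcrl and Ramp2 together form a receptor for adrenomedullin, the peptide encoded by Adm. Calcrl fell 13.4-fold (log2 change -3.74 ± 0.34 SE, adjusted p = 1.53e-05) and Ramp2 17.3-fold (log2 change -4.12 ± 0.44 SE, adjusted p = 3.38e-05). S1pr1, the receptor for sphingosine-1-phosphate that steadies the vessel barrier, fell 7.26-fold (log2 change -2.86 ± 0.26 SE, adjusted p = 1.52e-05), and the guidance receptor Robo4 fell 4.35-fold (log2 change -2.12 ± 0.35 SE, adjusted p = 0.000437). Eng, endoglin, a co-receptor for BMP9 and TGF-beta (chromosome 2, 32535543 to 32574661), was the receptor that fell least. It was at 454, 173 and 503 CPM in normal VEH, 357, 415 and 507 in normal HDM, 166, 158 and 178 in tumour VEH and 137, 100 and 103 in tumour HDM. Tumour VEH replicate 3 lay above normal VEH replicate 2, so that the tissues overlapped, and the mean fall was 2.91-fold (log2 change -1.54 ± 0.23 SE, adjusted p = 0.000245). Fpgs on the other strand overlaps Eng, and reads of the pair may not have been separated.

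The 4 transcription factors, Erg of the ETS family and Sox7, Sox17 and Sox18 of the SOX F group, were lower under both treatments. Sox17, which is known from arterial endothelium (chromosome 1, 4561151 to 4567784), was at 42.8, 25.5 and 34.4 CPM in normal VEH, 93.9, 31.7 and 47.1 in normal HDM, 3.14, 7.44 and 2.49 in tumour VEH and 4.97, 2.73 and 1.76 in tumour HDM. Normal HDM replicate 1 was the highest, and all tumours were below all normal libraries, with a mean fall of 12-fold (log2 change -3.58 ± 0.40 SE, adjusted p = 4.5e-05). Sox7 had the largest change of the 4, 15.9-fold (log2 change -3.99 ± 0.49 SE, adjusted p = 7.95e-05). It was at 103, 24.1 and 97.3 CPM in normal VEH, 111, 62.1 and 94.1 in normal HDM, 4.67, 15.8 and 5.54 in tumour VEH and 5.17, 2.12 and 1.88 in tumour HDM. Sox18, also needed for lymphatic development, fell 10.4-fold (log2 change -3.37 ± 0.42 SE, adjusted p = 8.34e-05). Erg, which maintains endothelial identity, was at 96.2, 56.9 and 139 CPM in normal VEH, 76.6, 80.3 and 94.9 in normal HDM, 10.4, 25.3 and 11.8 in tumour VEH and 6.9, 6.28 and 3.15 in tumour HDM. Its mean fall was 9.75-fold (log2 change -3.29 ± 0.32 SE, adjusted p = 1.93e-05), the smallest of the 4.

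Caveolae are small membrane pits that are abundant in lung endothelium, and diaphragms span the openings of some of them. Plvap, the diaphragm protein (chromosome 8, 71948674 to 71964506), was at 498, 187 and 547 CPM in normal VEH, 261, 404 and 488 in normal HDM, 57.6, 84.8 and 50.7 in tumour VEH and 41.3, 21.9 and 23.6 in tumour HDM. Tumours did not overlap normal lung, with a mean fall of 9.2-fold (log2 change -3.20 ± 0.31 SE, adjusted p = 2.11e-05). Tmem100, a membrane protein induced by BMP9 and ALK1 signalling (chromosome 11, 89921122 to 89928844), had the largest fall of all 44 genes. It was at 385, 127 and 391 CPM in normal VEH, 194, 249 and 381 in normal HDM, 6.41, 54.4 and 11.2 in tumour VEH and 3.78, 2.19 and 0.364 in tumour HDM. The 3 tumour HDM libraries were lower than all others, tumour VEH replicate 2 was well above the other tumours, and the mean fall was 40.6-fold (log2 change -5.34 ± 0.72 SE, adjusted p = 0.000136). Tumour HDM replicate 3 held 12 counts of Tmem100. Thbd, thrombomodulin, which turns thrombin into an anticoagulant, fell 11.2-fold (log2 change -3.49 ± 0.31 SE, adjusted p = 1.39e-05), and Rasip1, needed to form vessel lumens, 9.49-fold (log2 change -3.25 ± 0.37 SE, adjusted p = 5.33e-05). A030001D20Rik on the other strand held 16222 counts against 23201 for Rasip1. Egfl7, Sox18 and Plvap likewise overlap genes on the other strand, Agpat2, Gm74574 and Gtpbp3.

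At the other end stood caveolin itself. Cav1 (chromosome 6, 17306140 to 17341451), the coat protein of caveolae, which alveolar type 1 cells, fibroblasts and smooth muscle also make, was at 1240, 814 and 1390 CPM in normal VEH, 1030, 941 and 1150 in normal HDM, 527, 697 and 422 in tumour VEH and 638, 691 and 657 in tumour HDM. The tissues did not overlap, but the mean fall was only 1.81-fold (log2 change -0.86 ± 0.16 SE, adjusted p = 0.000851). Under HDM the change was -0.65 with an adjusted p of 0.0307, and it missed the threshold with scaling by library size only (log2 change -0.48, adjusted p = 0.0778). Cav2, its partner, fell 3.38-fold (log2 change -1.76 ± 0.19 SE, adjusted p = 3.31e-05), and Nos3, the endothelial nitric oxide synthase, 3.32-fold (log2 change -1.73 ± 0.29 SE, adjusted p = 0.000471). Cav1 and Nos3 overlap genes on the other strand, Gm68216 with 38657 counts against 267996 for Cav1, and Gm15587 with 2289 against 5588 for Nos3. Per kilobase of gene length, on a scale of CPM per kilobase, Cav1 was the highest of the 44 in both tissues at 317 ± 60.5 (SD, n = 6) in normal lung and 176 ± 31.6 (SD, n = 6) in tumours. On that scale Cldn5 came next in normal lung at 285 ± 108 and Cav2 in tumours at 37 ± 8.63. The spreads of Cav1 and Cldn5 in normal lung overlapped.

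**Figure D3:**
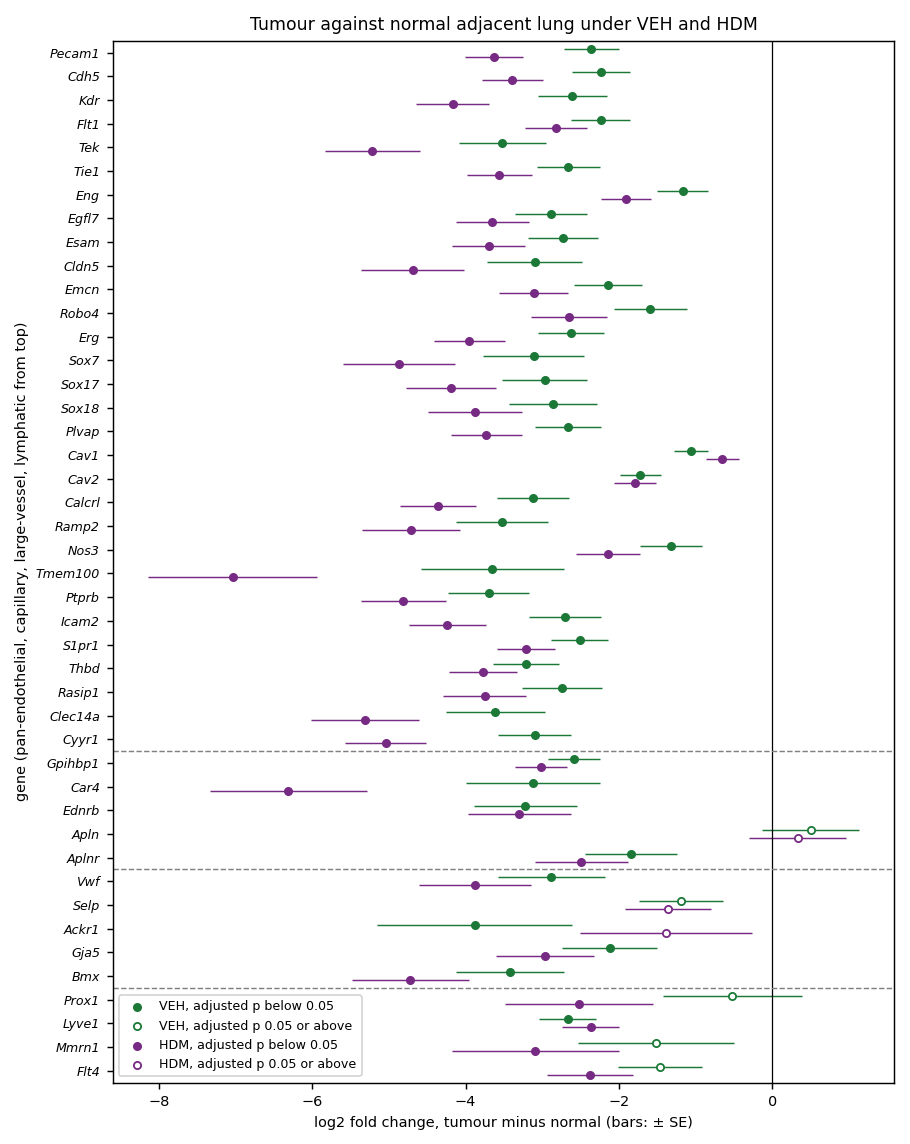
Log2 fold change of each gene, tumour minus normal, under VEH (green) and HDM (purple), with bars of ± 1 SE, from edgeR. Filled points passed an adjusted p of 0.05 and open points did not, and the genes are grouped as shared, capillary, large-vessel and lymphatic from the top. Apln is the gene to the right of 0, and Ackr1 under VEH rests on 3, 2 and 2 counts in the tumours.

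Of the 5 capillary genes, 4 were lower in tumours in each treatment and Apln was not. Car4, carbonic anhydrase 4 of the aerocyte capillaries (chromosome 11, 84848020 to 84856879), was at 151, 65 and 105 CPM in normal VEH, 114, 144 and 127 in normal HDM, 1.78, 27.7 and 7.29 in tumour VEH and 3.04, 1.47 and 0.425 in tumour HDM. Tumour VEH replicate 2 reached 27.7 CPM where the other tumours were at 7.29 or less, and all tumours stayed under all normal libraries. The mean fall was 26.3-fold (log2 change -4.72 ± 0.67 SE, adjusted p = 0.000186), and tumour HDM replicate 3 held 14 counts of Car4. Ednrb, the endothelin B receptor, also of aerocytes (chromosome 14, 104052053 to 104081900), was at 116, 44.2 and 79.7 CPM in normal VEH, 79.2, 73.1 and 122 in normal HDM, 3.82, 13.2 and 8.77 in tumour VEH and 5.83, 3.48 and 18.4 in tumour HDM. Tumour HDM replicate 3 was the highest of the tumours here, although it was the lowest for most other genes. Ednrb is also expressed by melanocytes and some tumour cells, and the cell of origin was not measured. The mean fall was 9.57-fold (log2 change -3.26 ± 0.47 SE, adjusted p = 0.000216).

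Gpihbp1, which carries lipoprotein lipase to the lumen of general capillaries (chromosome 15, 75468474 to 75471331), was at 157, 84.9 and 158 CPM in normal VEH, 118, 77.2 and 113 in normal HDM, 22.3, 28.3 and 15.6 in tumour VEH and 17.7, 10.9 and 9.52 in tumour HDM. Tumours and normal lung did not overlap, and the mean fall was 7-fold (log2 change -2.81 ± 0.24 SE, adjusted p = 1.12e-05). Aplnr, the apelin receptor of general capillaries (chromosome 2, 84966569 to 84970267), was at 50.4, 10.1 and 36.3 CPM in normal VEH, 32.4, 23.9 and 67.7 in normal HDM, 12, 6.95 and 8.03 in tumour VEH and 9.94, 3.69 and 8.49 in tumour HDM. Normal VEH replicate 2 lay within the tumour range, and the mean fall was 4.48-fold (log2 change -2.17 ± 0.43 SE, adjusted p = 0.00143). Under VEH alone its call was lost without any 1 of 5 of the 6 libraries compared, the exception being normal VEH replicate 2.

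Apln encodes apelin, the ligand of Aplnr, which is known from aerocytes and from the tip cells of sprouting vessels (chromosome X, 47114019 to 47123775). It was at 45.7, 10.9 and 47.4 CPM in normal VEH, 19, 22.2 and 47 in normal HDM, 57.3, 31.1 and 58.5 in tumour VEH and 53.6, 12.1 and 45.1 in tumour HDM. The tissues overlapped, with tumour HDM replicate 2 near the lowest normal library. Its log2 change was 0.50 ± 0.63 SE under VEH (adjusted p = 0.548) and 0.33 ± 0.63 SE under HDM (adjusted p = 0.686). It was thus the 1 gene of the 44 with a positive value in both treatments, without passing the test in either. With the library-name prefix as a block the value under VEH turned to -0.25 (adjusted p = 0.465), and Apln passed as higher under HDM (log2 change 1.15, adjusted p = 0.0176). Without the 4 libraries of conflicting prefix it passed as higher under HDM (log2 change 1.37, adjusted p = 0.0146). By level per kilobase it ranked 32 of the 44 in normal lung, at 10.2 ± 5.23 CPM per kilobase, and 8 of the 44 in tumours, at 13.6 ± 5.78 (SD, n = 6 each).

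Promoter sequence was set beside these values, because most of the genes moved together and Apln did not. RefSeq promoters (GRCm38.p6, from 250 bases before to 50 after the start) were at hand for 26 of the 44 genes. The letters CAGGAAG, a form of the ETS family motif, or their reverse complement CTTCCTG, occurred in 9 of these 26 (Ackr1, Apln, Calcrl, Cyyr1, Egfl7, Emcn, Erg, Rasip1 and Robo4), and in 14.8% of the 27025 genes in the table. The shorter ETS core CCGGAA, or TTCCGG, occurred in 2 of 26 (Car4 and Kdr) against 16.7% of genes. These were 2 of 12 motifs searched on both strands, and both were chosen for marking after the counts were seen. CAGGAAG was 1 of those more frequent in the 26 than in the table. The counts are thus a description, and a match says nothing of binding. Among the other ETS-type letters, which overlap these, GGAA occurred in 25 of 26 (96.5% of genes), AGGAAG in 15 (38.4%), AACAGGAA in 4 (3%) and ACCGGAAG in 0 (2.6%). The remaining motifs were ACAAT in 10 of 26 (34.4% of genes), ACAATG in 3 (14.3%), ACGTG in 3 (21.8%), TATAAA in 5 (15.7%), GGGCGG in 12 (38.2%) and TTTCC in 20 (64.4%). The 250 bases before the start are printed 5′ to 3′ on the gene's own strand for 3 genes that fell and for Apln, all picked because they hold CAGGAAG, with the match in capitals, at chr2:84425267-84425516 (minus strand) for Calcrl, chr3:137340828-137341077 (plus) for Emcn, chr9:37401722-37401971 (plus) for Robo4 and chrX:48034854-48035103 (minus) for Apln.
Calcrl: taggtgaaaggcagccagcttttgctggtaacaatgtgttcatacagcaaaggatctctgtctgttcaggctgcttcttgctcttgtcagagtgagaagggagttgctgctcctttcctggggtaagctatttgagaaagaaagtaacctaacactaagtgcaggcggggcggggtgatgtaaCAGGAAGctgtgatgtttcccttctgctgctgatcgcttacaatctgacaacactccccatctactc
Emcn: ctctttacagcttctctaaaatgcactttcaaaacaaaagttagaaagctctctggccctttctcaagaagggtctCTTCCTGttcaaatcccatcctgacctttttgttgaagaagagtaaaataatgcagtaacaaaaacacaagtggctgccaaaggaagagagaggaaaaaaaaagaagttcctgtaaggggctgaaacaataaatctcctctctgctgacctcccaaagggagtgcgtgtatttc
Robo4: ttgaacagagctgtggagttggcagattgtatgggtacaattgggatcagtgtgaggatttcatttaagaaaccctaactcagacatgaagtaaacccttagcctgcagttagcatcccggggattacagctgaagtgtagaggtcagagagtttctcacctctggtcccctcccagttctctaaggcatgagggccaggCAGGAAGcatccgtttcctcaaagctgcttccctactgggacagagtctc
Apln: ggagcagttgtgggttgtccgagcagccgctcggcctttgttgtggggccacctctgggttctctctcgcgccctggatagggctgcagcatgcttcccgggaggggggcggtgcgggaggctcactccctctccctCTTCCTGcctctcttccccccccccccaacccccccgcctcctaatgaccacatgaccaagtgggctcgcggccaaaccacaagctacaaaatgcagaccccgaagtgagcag
The match begins 67 bases before the start in Calcrl, 174 in Emcn, 50 in Robo4 and 113 in Apln. The other printed genes fell 13.4-fold, 6.17-fold and 4.35-fold. Since all were picked for holding CAGGAAG, the motif they share with Apln was fixed by the choice and says nothing of why they fell.

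All 5 large-vessel genes were lower in the mean comparison, and their levels were unlike each other. Vwf, von Willebrand factor of larger vessels (chromosome 6, 125523737 to 125663642), was at 438, 471 and 826 CPM in normal VEH, 777, 789 and 437 in normal HDM, 63.2, 117 and 55.2 in tumour VEH and 61.7, 67.2 and 6.88 in tumour HDM. Tumour HDM replicate 3 was the lowest, and the tissues did not overlap, with a mean fall of 10.4-fold (log2 change -3.38 ± 0.51 SE, adjusted p = 0.000262). Megakaryocytes and platelets also make Vwf and Selp. Of the platelet and megakaryocyte genes tested, 4 of 5 were lower in tumours with a median log2 change of -3.55. Their summed level was 56.1 to 163 CPM in normal lung and 14 to 72.8 CPM in tumours, highest among the tumours in HDM replicate 3. That library held 1876 counts of Pf4 and 465 of Ppbp, but 54 of Itga2b, 4 of Treml1 and 0 of Gp9, so the list did not rise there as a whole. The part of platelets and megakaryocytes in the Vwf and Selp values was not tested.

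Selp, the P-selectin of veins (chromosome 1, 163942833 to 163977595), was at 2.63, 6.95 and 7.03 CPM in normal VEH, 6.02, 7.02 and 1.84 in normal HDM, 2.17, 2.23 and 2.91 in tumour VEH and 1.97, 2.73 and 1.09 in tumour HDM. These are 36 to 221 counts per library, 1173 in all, and Gm16548 on the other strand held 618. Here normal VEH replicate 1 and normal HDM replicate 3 lay within the tumour range, and the mean fall was 2.42-fold (log2 change -1.27 ± 0.39 SE, adjusted p = 0.0152), which passed under neither treatment alone. This call was lost without tumour VEH replicate 1 (log2 change -1.12, adjusted p = 0.0524) and without tumour HDM replicate 3 (log2 change -1.01, adjusted p = 0.0531). Ackr1, the atypical chemokine receptor of venules (chromosome 1, 173159453 to 173161317), was at 0.452, 3.52 and 0.505 CPM in normal VEH, 1.02, 0.68 and 0.737 in normal HDM, 0.127, 0.0744 and 0.0923 in tumour VEH and 0.205, 0.717 and 0 in tumour HDM. Its tumour VEH libraries held 3, 2 and 2 counts and its tumour HDM libraries 5, 21 and 0, so no fold is given. Normal VEH replicate 2 held 112 counts against 11 to 25 in the other normal libraries. Without it the call over both treatments was lost (log2 change -1.81, adjusted p = 0.0679), as it was without tumour HDM replicate 1 (log2 change -2.43, adjusted p = 0.0504).

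Gja5, connexin 40 of arteries (chromosome 3, 96812009 to 96984732), was at 74.6, 16.9 and 76.6 CPM in normal VEH, 35.6, 44.9 and 89.3 in normal HDM, 11.1, 15.8 and 11.6 in tumour VEH and 10.2, 8.91 and 2.73 in tumour HDM. Tumours lay below all normal libraries, by 5.83-fold in the mean (log2 change -2.54 ± 0.45 SE, adjusted p = 0.000714). Atrial heart muscle also makes Gja5, and a list of cardiac muscle genes summed to 15.6 to 401 CPM in normal lung and 0.425 to 12.7 in tumours. Its part was not tested. Gpr89 on the other strand, with 7133 counts against 10195 for Gja5, adds a further uncertainty. Bmx, a tyrosine kinase of arterial endothelium (chromosome X, 162975838 to 163041195), was at 20.7, 10.5 and 21.8 CPM in normal VEH, 13, 16 and 18.3 in normal HDM, 0.425, 3.27 and 1.2 in tumour VEH and 0.945, 0.683 and 0.182 in tumour HDM. All tumours lay below all normal libraries, and the mean fall was 16.8-fold (log2 change -4.07 ± 0.52 SE, adjusted p = 8.94e-05), the largest of the 5. The tumour libraries held only 6 to 88 counts of Bmx, so this fold is imprecise.

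The 4 lymphatic genes had negative log2 changes in both treatments and the mean, although Prox1 under VEH was at 0.01 without tumour VEH replicate 1 (adjusted p = 0.997), and 1 of 4 passed under VEH, 4 of 4 under HDM and 3 of 4 in the mean. Prox1, the master regulator of lymphatic identity (chromosome 1, 189850232 to 189904637), was at 2.63, 1.42 and 1.43 CPM in normal VEH, 2.62, 3.1 and 2.95 in normal HDM, 0.425, 0.818 and 2.58 in tumour VEH and 1.23, 0.273 and 0.0303 in tumour HDM. These are 1 to 82 counts per library. Tumour VEH replicate 3 lay among the normal libraries, and the mean change did not pass (log2 change -1.52 ± 0.66 SE, adjusted p = 0.0637). Lyve1, a hyaluronan receptor of lymphatic capillaries that some macrophages share (chromosome 7, 110448585 to 110462460), was at 173, 225 and 361 CPM in normal VEH, 140, 157 and 186 in normal HDM, 21.9, 55.3 and 42.3 in tumour VEH and 27.8, 24.5 and 41.3 in tumour HDM. Tumours were lower throughout, by 5.72-fold (log2 change -2.52 ± 0.26 SE, adjusted p = 2.87e-05).

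Mmrn1, a matrix protein of lymphatic vessels and platelets (chromosome 6, 60901960 to 60966362), was at 28.5, 15.2 and 17.4 CPM in normal VEH, 23.8, 18.3 and 17.7 in normal HDM, 3.57, 5.28 and 12.5 in tumour VEH and 5.01, 2.05 and 0 in tumour HDM. Tumour HDM replicate 3 held 0 counts and the other tumours 60 to 270, and the mean fall was 4.95-fold (log2 change -2.31 ± 0.74 SE, adjusted p = 0.0194). Flt4, VEGFR3, the receptor for VEGF-C and VEGF-D (chromosome 11, 49500090 to 49543582), was at 34.3, 37.1 and 31.6 CPM in normal VEH, 37.9, 32.3 and 34.5 in normal HDM, 9.77, 8.7 and 19 in tumour VEH and 12.8, 5.67 and 1.76 in tumour HDM. The normal libraries lay close together and above all tumours, with a mean fall of 3.78-fold (log2 change -1.92 ± 0.39 SE, adjusted p = 0.00171). Under VEH it missed the threshold (adjusted p = 0.0559). The calls of Mmrn1 under HDM and over both treatments and of Prox1 under HDM were lost in several of the alternatives tried.

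A further comparison asked how each gene stood to a set of general endothelial genes. The counts were scaled to 6 reference genes that most endothelial cells express, Pecam1, Cdh5, Tie1, Erg, Esam and Robo4, in place of TMM. Pecam1 made up 29.7% to 33.9% of their sum in normal lung and 28.5% to 32.9% in tumours. For Cdh5 these shares were 29.6% to 36.1% and 31.2% to 39.7%, so these genes weigh most in the reference. Since these 6 fell, 77% of all genes were higher in tumours on this scale and 3.01% lower, with a median log2 change of all genes of 2.9. Of the other 38 vessel genes, 11 were lower and 8 higher in the mean comparison. Under VEH alone 5 were lower and 4 higher, where all genes gave 1.23% and 65.2%, and under HDM 9 and 8, where all genes gave 2.3% and 76.5%.

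The 11 that fell beyond the reference were led by Tmem100 (log2 change -2.52 ± 0.43 SE, adjusted p = 8.21e-06) and Car4 (-1.94 ± 0.43, adjusted p = 0.000194). As a percentage of the summed reference, Tmem100 was at 21, 13.7 and 19.7% in normal VEH, 10.6, 14.9 and 20.3 in normal HDM, 2.45, 14 and 4.42 in tumour VEH and 1.55, 1.64 and 0.382 in tumour HDM. Tumour VEH replicate 2 lay within the normal range and all other tumours below it. Car4 was at 8.19, 7.05 and 5.32% in normal VEH, 6.24, 8.6 and 6.8 in normal HDM, 0.681, 7.15 and 2.89 in tumour VEH and 1.25, 1.1 and 0.446 in tumour HDM. Again tumour VEH replicate 2 was as high as normal lung. Tek, at 12.7, 14 and 13.4% in normal VEH, 12.5, 13.1 and 12.1 in normal HDM, 3.41, 8.9 and 4.49 in tumour VEH and 3.45, 5.23 and 2.93 in tumour HDM, was lower in all tumours than in any normal library (log2 change -1.48 ± 0.33 SE, adjusted p = 0.000164).

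The others of the 11 were Clec14a (-1.50), Ptprb (-1.37), Bmx (-1.22), Ramp2 (-1.18), Cyyr1 (-1.15), Sox7 (-1.04), Cldn5 (-0.98) and Calcrl (-0.77), each as a log2 change. Tek and Ptprb belong to 1 receptor system, and Calcrl and Ramp2 to 1 receptor. Apart from the 11, Kdr (-0.45 ± 0.31 SE, adjusted p = 0.175) and Plvap (-0.19 ± 0.31, adjusted p = 0.585) did not pass.

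The 8 that were higher on this scale were Apln, Cav1, Selp, Eng, Cav2, Nos3, Aplnr and Flt4. Apln stood at 2.48, 1.19 and 2.39% in normal VEH, 1.04, 1.32 and 2.5 in normal HDM, 21.9, 8.02 and 23.1 in tumour VEH and 22, 9.08 and 47.4 in tumour HDM of the reference. The lowest tumour, VEH replicate 2, was above the highest normal library, and the log2 change was 3.57 ± 0.43 SE (adjusted p = 3.01e-08). Cav1 stood at 67.5, 88.2 and 70.1% in normal VEH, 56.4, 56.1 and 61.1 in normal HDM, 201, 180 and 167 in tumour VEH and 263, 519 and 691 in tumour HDM, with a log2 change of 2.18 ± 0.35 SE (adjusted p = 1.37e-06). All tumours were again above all normal libraries. Eng stood at 24.7, 18.7 and 25.4% in normal VEH, 19.5, 24.8 and 27.1 in normal HDM, 63.2, 40.8 and 70.5 in tumour VEH and 56.6, 75.2 and 109 in tumour HDM, also without overlap (log2 change 1.55 ± 0.33 SE, adjusted p = 8.5e-05).

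A higher share was the rule for all genes on this scale, so these 8 are not set apart by it. The median of all genes, 2.9, was passed by Apln alone among the 38. RNA of these genes from tumour or other cells and a higher level per endothelial cell cannot be told apart in these libraries. By class, the median log2 change against the reference was -0.45 for the 24 shared genes, 0.17 for the capillary, 0.06 for the large-vessel and 0.71 for the lymphatic genes. The sign of the large-vessel median rested on single libraries, as it was -0.91 without tumour HDM replicate 2, -0.19 without normal VEH replicate 1 or without normal VEH replicate 3, and -0.11 without tumour VEH replicate 1. All 4 lymphatic genes had a positive value, and Flt4 passed (0.91 ± 0.39 SE, adjusted p = 0.0329). The counts under VEH, 5 lower and 4 higher, depended on the libraries used. They were 11 and 7 without normal VEH replicate 2 and tumour VEH replicate 2 together, 3 and 2 without normal VEH replicate 1, 4 and 2 without normal VEH replicate 3, 1 and 3 without tumour VEH replicate 1, 1 and 2 without tumour VEH replicate 3, and 0 and 2 without the 4 libraries of conflicting prefix.

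**Figure D4:**
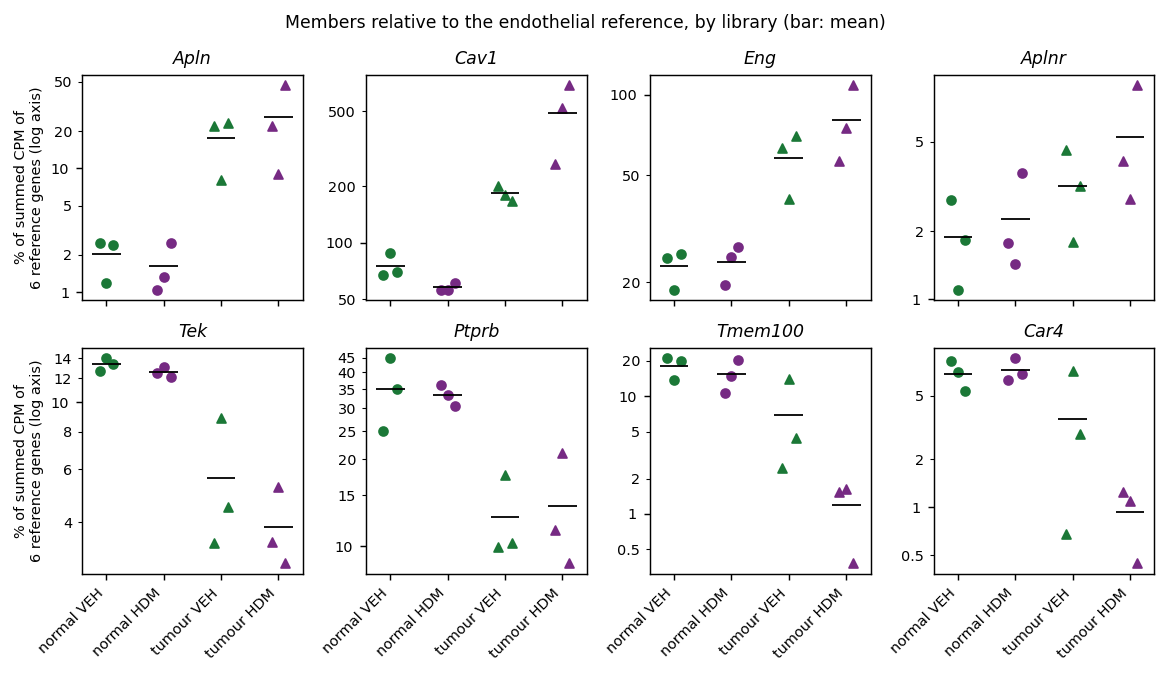
Level of 8 genes as a percentage of the summed CPM of the 6 endothelial reference genes in each library (log axes), normal libraries as circles and tumours as triangles, VEH green and HDM purple, with a bar at the group mean. Apln, Cav1 and Eng are higher in all tumours than in any normal library, while Tek, Ptprb and, apart from tumour VEH replicate 2, Tmem100 and Car4 are lower.

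With the treatment labels as given, HDM left the vessel genes of normal lung with no detected change. None passed the edgeR test, 0 of 44, where 0% of all genes did, and 0 of 44 had an unadjusted p below 0.05, where 1230 of all genes had. The median log2 change was 0.02, with 21 genes lower and 23 higher as values. The smallest adjusted p was 0.891, for Lyve1 (-0.65 ± 0.35 SE). Standard errors ran from 0.22 for Cav1 to 1.07 for Ackr1 on the log2 scale, and differences of several standard errors may have gone undetected. DESeq2's Wald test also called 0 of the 44, and 23 of all 78298 gene rows. Normal VEH replicate 2 and normal HDM replicate 3 are the normal libraries whose treatment labels conflict with their prefixes. With these 2 labels exchanged, 503 of all genes were higher under HDM and 73 lower, so this comparison rests on the labels as given. The vessel genes under exchanged labels are not listed here.

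In tumours the vessel genes were mostly lower under HDM as values, and none passed the test. The count was 0 of 44, where 0.0856% of all genes were lower and 0.00901% higher. Of the 44, 41 had a negative log2 change, 17 an unadjusted p below 0.05 (3698 of all genes) and 14 had all HDM tumours below all VEH tumours, where 10.7% of all genes did. The median was -0.90 over the 44, -1.05 for the shared, -0.41 for the capillary, -0.80 for the large-vessel and -1.11 for the lymphatic genes. The 3 genes with a positive value were Ackr1, Cav1 and Ednrb. The summed endothelial reference was at 262, 388 and 253 CPM in VEH tumours and 243, 133 and 95.2 in HDM tumours. HDM replicate 1 was thus near VEH replicates 1 and 3. Without tumour VEH replicate 2, 2085 of all genes had an unadjusted p below 0.05, and without tumour HDM replicate 3, 2628. Without any 1 of the other libraries compared, the number was 2992 to 3895. The unadjusted p-values of the vessel genes in these fits are not listed here.

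Tmem100 had the largest difference, from 6.41, 54.4 and 11.2 CPM in VEH tumours to 3.78, 2.19 and 0.364 CPM in HDM tumours (-3.53 ± 0.95 SE, adjusted p = 0.167). Erg went from 10.4, 25.3 and 11.8 CPM to 6.9, 6.28 and 3.15 (-1.54 ± 0.43 SE, adjusted p = 0.173), again without overlap. Icam2, an adhesion molecule at endothelial junctions, went from 12.7, 30.6 and 14.1 CPM to 8.71, 5.33 and 5.28 (-1.57 ± 0.46 SE, adjusted p = 0.188). DESeq2's Wald test called 4 (Erg, Tmem100, Icam2 and Car4) of the 44 lower, where it called 978 of all genes lower and 193 higher. Among the other lists in the same contrast, alveolar type 1 genes had a median log2 change of -1.39, alveolar type 2 genes -1.22 and red blood cell genes -1.54, with 0 passing in each. The summed alveolar type 1 level was 282 to 1130 CPM in VEH tumours and 59.9 to 357 CPM in HDM tumours, and the summed red blood cell level was 341 to 959 and 127 to 276 CPM. Their part in the endothelial values was not tested.

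Whether the tissue difference depended on treatment was tested by the interaction. None of the 44 passed, 0% of all genes did, and 9 of the 44 had an unadjusted p below 0.05 (2084 of all genes). The smallest adjusted p was 0.48, for Cyyr1 (-1.94 ± 0.65 SE). DESeq2's Wald test called 0 of the 44 as well, and 208 of all 78298 gene rows. The larger medians under HDM than under VEH were therefore not shown to differ.

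Other genes of vessel signalling were read from lists. Of 14 vascular ligands tested, 8 were lower and 3 higher in tumours in the mean comparison, where 34.8% of all genes were lower and 28.1% higher, so the share of ligands that were higher was below that of all genes. Sema3g, a semaphorin of arteries, fell most (log2 change -4.37 ± 0.33 SE, adjusted p = 7.14e-06), then Edn1, endothelin 1 (log2 change -3.55 ± 0.40 SE, adjusted p = 4.17e-05), and Esm1, a tip cell proteoglycan (log2 change -3.00 ± 0.61 SE, adjusted p = 0.00172). Vegfa, the main VEGF, made largely by alveolar type 1 cells in lung, ranged from 237 to 583 CPM in normal lung and from 23.4 to 70.1 CPM in tumours (log2 change -2.85 ± 0.31 SE, adjusted p = 3.86e-05). The Notch ligand of tip cells, Dll4, also fell (log2 change -2.34 ± 0.49 SE, adjusted p = 0.00204).

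The 3 ligands that rose were Adm (log2 change 1.58 ± 0.63 SE, adjusted p = 0.0488), Vegfd (log2 change 1.01 ± 0.23 SE, adjusted p = 0.00312) and Vegfb (log2 change 0.52 ± 0.15 SE, adjusted p = 0.0119). Their libraries overlapped between tissues. Adm was at 2.02 to 5.24 CPM in 5 of the normal libraries and 22.9 in normal VEH replicate 2, above 5 of the 6 tumours, which were at 5.95 to 19.1 with tumour HDM replicate 3 at 53.6. Vegfd was at 16.2 to 35.4 CPM in normal lung and 32.5 to 69.3 in tumours, and Vegfb at 21.1 to 35.6 and 32.8 to 63.3. Vegfc (log2 change 0.03 ± 0.34 SE, adjusted p = 0.949) and Angpt2 (log2 change 0.11 ± 0.31 SE, adjusted p = 0.779), the antagonist ligand of Tie2, did not pass. Vegfc was at 38, 35.4 and 31 CPM in tumour VEH and 18.9, 6.39 and 10 in tumour HDM. It was at 10.6, 14.7 and 38.4 in normal VEH and 22.8, 17.9 and 15 in normal HDM. Its mean change thus averages tumour levels that did not overlap between treatments. Mcph1 on the other strand held 4503 counts against 4623 for Angpt2, and Adm, Vegfb, Vegfc and Dll4 also overlap a gene on the other strand. Apela, the other apelin receptor ligand, was too low to be tested.

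Of 15 further receptors, 11 were lower and 2 higher in the mean comparison, where 34.8% of all genes were lower and 28.1% higher. The share of these receptors that were higher was below that of all genes. Adgrf5 (log2 change -3.70 ± 0.35 SE, adjusted p = 1.81e-05), Acvrl1, which is ALK1 (log2 change -3.58 ± 0.34 SE, adjusted p = 1.76e-05), and Adgrl4 (log2 change -3.13 ± 0.32 SE, adjusted p = 2.91e-05) fell most, all 3 endothelial surface receptors. Unc5b, a netrin receptor (log2 change 2.41 ± 0.31 SE, adjusted p = 0.000101), and Nrp2, the co-receptor for VEGF-C (log2 change 2.34 ± 0.22 SE, adjusted p = 1.6e-05), were higher, and many other cell types express both. Of 14 regulators, 13 were lower and 0 higher, led by Epas1, which is HIF-2alpha (log2 change -4.60 ± 0.60 SE, adjusted p = 0.000112), Foxf1 (log2 change -4.29 ± 0.50 SE, adjusted p = 5.79e-05) and Meox2 (log2 change -3.72 ± 0.57 SE, adjusted p = 0.000297), and Ets1, also a lymphocyte factor, was the 1 that did not pass (log2 change -0.24 ± 0.12 SE, adjusted p = 0.105).

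Of the 3 leukocyte adhesion genes tested, Icam1 was lower (log2 change -2.55 ± 0.39 SE, adjusted p = 0.000323), Sele, the E-selectin of activated endothelium, higher (log2 change 1.18 ± 0.47 SE, adjusted p = 0.0481), and Vcam1 did not pass (log2 change 0.10 ± 0.16 SE, adjusted p = 0.598). Icam1 held 5948, 14784 and 9871 counts in normal VEH, most in replicate 2, the normal library lowest for the endothelial reference. Its cell of origin was not measured. Gm47079 on the other strand held 23947 counts against 85048 for Icam1. Sele was low throughout, at 1.14 to 4 CPM in normal lung and 1.23 to 7.49 CPM in tumours, and these ranges overlap. Selp, the other endothelial selectin, was lower in the mean comparison only, also with overlapping libraries. Its call was lost without tumour VEH replicate 1 and without tumour HDM replicate 3.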

How the data were processed

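The deposited table held raw read counts per Ensembl gene for 12 libraries, and per the submitters' processing notes STAR, featureCounts, Subread, Trim Galore and mm39 were used. Whether counting used the strand is not given in the sources used here. Libraries were made by a stranded dUTP workflow, per the labels. Symbols and coordinates came from GENCODE M39 (GRCm39), which named 78168 of 78298 rows, and all 44 genes had 1 row. In R 4.3.3, edgeR 4.0.16 kept 22190 genes (filterByExpr, minimum count 10), including all 44, scaled by TMM and fitted 1 coefficient for each group over the 12 libraries, with robust estimation of the quasi-likelihood dispersion. The mean comparison averages both tissue differences. P-values are two-sided with Benjamini-Hochberg adjustment over all genes. SE is the log2 change divided by the square root of F. Replicate numbers in the titles did not pair the libraries. Members and lists were chosen with earlier results of these data known. Any of the 44 could be named, with values in every library for 20 listed ones and for the extremes of each role, and list genes were the 3 largest changes in each direction plus 5 preset ligands. DESeq2 1.42.0 was an alternative. The fit was tested on simulated data.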

Additional observations from a re-analysis of the deposited data

How the results depend on the processing

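The labels pair no libraries by replicate number. Deviations of same-numbered libraries from their group means correlated between -0.42 and 0.31, and 0, 4, 2 and 3 of 6 libraries correlated best with their own number in the 4 simple comparisons. With the replicate number as a block, the numbers of vessel genes lower in tumours were 37 (VEH), 39 (HDM) and 42 (mean), and 1 gene in all was called between HDM and VEH tumours. Genes called between HDM and VEH tumours, 21 in the report, were 8 with scaling by library size only, 52 without a filter, 53 where every library needed 10 counts or more, 1171 with DESeq2, 0 with only the groups compared, 0 with the library-name prefix as a block, 0 without the 4 libraries of conflicting prefix, 66 with the treatment labels of 2 normal libraries exchanged, and 1 without both VEH libraries numbered 2, an alternative chosen after seeing the data. DESeq2 called 4 vessel genes lower there. In normal lung, 0 genes became 23 with DESeq2 and 576 with the labels exchanged, and the interaction's 0 became 208 and 186. Without the 4 libraries of conflicting prefix, 5603 in place of 8624 genes differed between tissues under VEH, and 1 vessel gene, Apln, was higher under HDM and in the mean, as also with the prefix block under HDM. Relative to the reference, that alternative gave 0 lower and 2 higher under VEH, and leaving out both VEH libraries 2 gave 11 and 7 with a shared-gene median of -0.61 in the mean. With all 30 shared genes as reference, where 24 of the 38 genes counted are part of the reference and the counts are not comparable with the others, 19 were lower and 4 higher under HDM and 20 lower in the mean, and class medians were -0.90 (shared), -0.29 (capillary) and -0.43 (large-vessel). Apln under VEH was -0.25 with the prefix block (adjusted p = 0.465), and Prox1 under VEH ranged from -1.45 without tumour VEH replicate 3 to 0.01 without tumour VEH replicate 1 (adjusted p = 0.997). The cause was not tested. With scaling by library size only, the median of all genes moved from -0.09 to 0.06 in the mean comparison, with 7313 genes higher and 6919 lower in place of 6236 and 7726, and 42 vessel genes were still lower.

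Leaving out each library in turn, the genes called ranged from 5733 (without tumour VEH replicate 1) to 9070 between tissues under VEH, from 0 to 24 between treatments in tumours and from 0 to 6 in the interaction. Vessel genes lower in tumours ranged from 30 to 38 under VEH, 38 to 40 under HDM and 40 to 43 in the mean. Relative to the reference, those lower ranged from 1 to 7 and those higher from 2 to 6 under VEH, from 7 to 9 and 6 to 8 under HDM, and from 9 to 12 and 6 to 10 in the mean. The large-vessel median ranged from -3.35 to -2.23 in the mean, and from -0.91 to 0.34 against the reference. A member with under 100 counts in a library, such as Ackr1 or Prox1, has little precision.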
